A study of Mus musculus with 36 samples.

Results

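Here 27 genes of cholesterol synthesis, its control and sterol transport are followed by mRNA sequencing, in the ESC (embryonic stem cell) state of a mouse line and in the NPC (neural precursor cell) state derived from it. The genes were taken by name from a table of 51734 gene symbols. They comprise 18 enzymes of the synthesis pathway, 5 genes of the SREBP control system and 4 genes of sterol transport. All 27 passed the filter on low counts, which left 20511 genes for testing.

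The libraries came from the E14 mouse ESC line and its differentiated progeny, and formed 6 groups of 3 out of 36 samples in 14 groups in the series. The 3 genotypes were wild type (WT), MLL3/4 dCD (dCD), in which the histone H3K4 methyltransferases MLL3 and MLL4 lack catalytic activity, and MLL2 dTAG (MLL2dTAG), in which the related enzyme MLL2 carries a degron. Each genotype was measured as ESC and as NPC. Every group, WT and ESC included, is labelled as treated with dTAG-13, a compound that sends dTAG-tagged proteins to degradation, and the NPC also with retinoic acid (RA). Per the labels, 2 µM dTAG-13 was given from day 1 of differentiation and the cells were collected on day 4. How long the ESC were treated is not stated in the labels. ESC medium contained a serum replacement and LIF. Each genotype is a cell line of its own, so the edit and other differences between the lines cannot be told apart, and the labels do not say that replicates were separate cultures, so p-values measure only the spread between these libraries.

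Cholesterol is built from acetyl-CoA through mevalonate, farnesyl diphosphate and squalene, and the first sterol, lanosterol, is then trimmed and reduced stepwise. The transcription factor SREBP2, encoded by Srebf2, drives most genes of the pathway. SCAP escorts SREBP out of the endoplasmic reticulum when sterols are scarce, and the INSIG proteins hold it back when sterols are plentiful. Export of cholesterol runs through the transporters ABCA1 and ABCG1, whose genes respond to the oxysterol receptors (LXR). The embryonic brain comes to make much of its own cholesterol.

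RefSeq promoter windows (GRCm38.p6, 250 bases before to 50 bases after the start site) were found for 21 of the 27 genes. No window was matched for Fdps, Fdft1, Sqle, Stard4, Abcg1 and Npc1. The SREBP motif TCACNCCA, read on both strands, was in a window of 3 of these 21 genes (14.3%): Hmgcs1, Msmo1 and Srebf2. The same letters were in 4.69% of the 12978 tested genes with a window. The motif CCAAT, the site of the SREBP partner NF-Y, was in 18 of 21 (85.7%) against 42.3% of tested genes, and the SP1 motif GGGCGG was in 20 of 21 (95.2%) against 63.9%. A match is a description of the letters in these windows, and matches of different motifs were counted without regard to overlap. The stretches below belong to genes that were lower in the ESC of both edited lines, and the capitals mark TCACNCCA, or CCAAT, which reads ATTGG where it lies on the opposite strand. They were picked to lie upstream of the RefSeq start and to overlap no exon of GENCODE vM21, which left out the Msmo1 stretch. CCAAT stretches were taken only from genes with a single window, at the upstream site nearest the start. All but the Mvd stretch also lie outside any annotated gene, and the Mvd stretch lies in an intron of Gm20388.
Hmgcs1, chr13:119690184-119690251, plus strand, SREBP motif 137 bases before the start: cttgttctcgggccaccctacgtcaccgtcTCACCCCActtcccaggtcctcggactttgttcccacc
Srebf2, chr15:82147077-82147144, plus strand, SREBP motif 162 bases before the start: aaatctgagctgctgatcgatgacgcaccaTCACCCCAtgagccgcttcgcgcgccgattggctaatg
Insig1, chr5:28071166-28071230, plus strand, CCAAT motif 216 bases before the start: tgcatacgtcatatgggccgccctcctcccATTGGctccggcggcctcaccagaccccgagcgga
Lss, chr10:76531513-76531577, plus strand, CCAAT motif 62 bases before the start: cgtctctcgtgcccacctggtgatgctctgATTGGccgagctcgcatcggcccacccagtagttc
Sc5d, chr9:42264301-42264354, minus strand, CCAAT motif 24 bases before the start: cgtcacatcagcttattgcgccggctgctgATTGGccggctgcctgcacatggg
Mvd, chr8:122443423-122443479, minus strand, CCAAT motif 27 bases before the start: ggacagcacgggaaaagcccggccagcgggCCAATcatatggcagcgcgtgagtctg
In the Srebf2 stretch the SREBP motif is followed closely by a CCAAT site on the opposite strand, printed there in lower case as attgg.

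Each library held 19430860 to 46041277 counts, spread over 23731 to 26730 genes. Levels are CPM, a gene's counts relative to its library's total after TMM scaling, and a count of 0 allows up to 0.0652 to 0.154 CPM. The coefficient of variation over the 3 libraries of a group, taken as the median over the 27 genes, was 2.21% to 4.11%. It was highest in ESC WT, where the median over the 11287 genes compared was 5.78%. The mRNA of the edited genes does not check the labels, since neither a degron nor a loss of catalytic activity need change transcript levels: Kmt2b, which encodes MLL2, was at 198 to 235 CPM in ESC WT and 201 to 214 CPM in ESC MLL2dTAG.

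Markers of other cell types moved with the groups. The summed level of 8 pluripotency markers was 3813 to 4773 CPM over the ESC libraries. It was 33.4 to 34.7 CPM in NPC WT, 49.3 to 50.5 in NPC dCD and 211 to 214 in NPC MLL2dTAG. The 8 neural progenitor markers summed to 107 to 121 CPM in ESC WT, 134 to 146 in ESC dCD and 113 to 119 in ESC MLL2dTAG. In NPC these markers summed to 464 to 467 CPM in WT, 557 to 599 in dCD and 486 to 494 in MLL2dTAG. The 9 endoderm markers summed to 416 to 430 CPM in NPC WT, 299 to 305 in NPC dCD and 845 to 870.0 in NPC MLL2dTAG. The 8 mesenchyme markers summed to 482 to 600.1 CPM in ESC WT, 767 to 857 in ESC dCD and 868 to 925 in ESC MLL2dTAG. In NPC they summed to 704 to 724 CPM in WT, 901 to 985 in dCD and 1081 to 1090 in MLL2dTAG. Against WT, 4 of the 8 rose in NPC MLL2dTAG and 3 fell (adjusted p under 0.05), where 33.3% and 28.4% of all tested genes did. The log2 changes of the 8 ran there from -2.85 to 1.94. The 6 neuron markers summed to 268 to 274 CPM in NPC WT, 404 to 435 in NPC dCD and 263 to 278 in NPC MLL2dTAG. In ESC they summed to 382 to 458 CPM in WT, 399 to 413 in dCD and 427 to 444 in MLL2dTAG. The ESC sums thus lay above that of NPC WT, and this sum does not set neurons apart from ESC. At 1 CPM or more were 8 of 8 pluripotency and at least 8 of 9 endoderm and 7 of 8 mesenchyme markers in each NPC group, and no marker of any list was at 0 in a whole group except Dcx in ESC MLL2dTAG. The part of these cells in the results was not tested, and in bulk samples fewer cells of a type and less RNA per cell cannot be told apart.

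In ESC the pathway was lower in both edited lines, and in NPC it was higher in MLL2dTAG. In ESC dCD 19 of the 27 genes fell and 4 rose, where 22.6% of all tested genes fell and 25.7% rose. The median log2 change was -0.33 for the 27 genes and 0.023 for all genes. In ESC MLL2dTAG 15 fell and 8 rose (28.2% and 28.7% of all genes), with a median of -0.18 against -0.0011. In NPC dCD 12 fell and 8 rose (26.8% and 26.7% of all genes), with a median of -0.053 against -0.017. In NPC MLL2dTAG 18 rose and 3 fell (33.3% and 28.4% of all genes), with a median of 0.29 against 0.028. With upper-quartile scaling the NPC MLL2dTAG split was 15 risen and 5 fallen, and 44.7% of the calls over all genes were higher, against 54.0% with TMM scaling. There were also 5 fallen genes with only the compared groups fitted, beside 18 risen, and with GC and length offsets, beside 19 risen. A gene is said to have risen or fallen where edgeR's quasi-likelihood F test gave a Benjamini-Hochberg adjusted p under 0.05 over all 20511 genes. The comparisons within a stage share the WT libraries, and 15 genes fell in the ESC of both lines (14.5% of all genes). Summed over the 27 genes, the CPM level was 75.6% of WT for dCD and 82.9% for MLL2dTAG among ESC, and 104% and 124% among NPC.

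**Figure D1:**
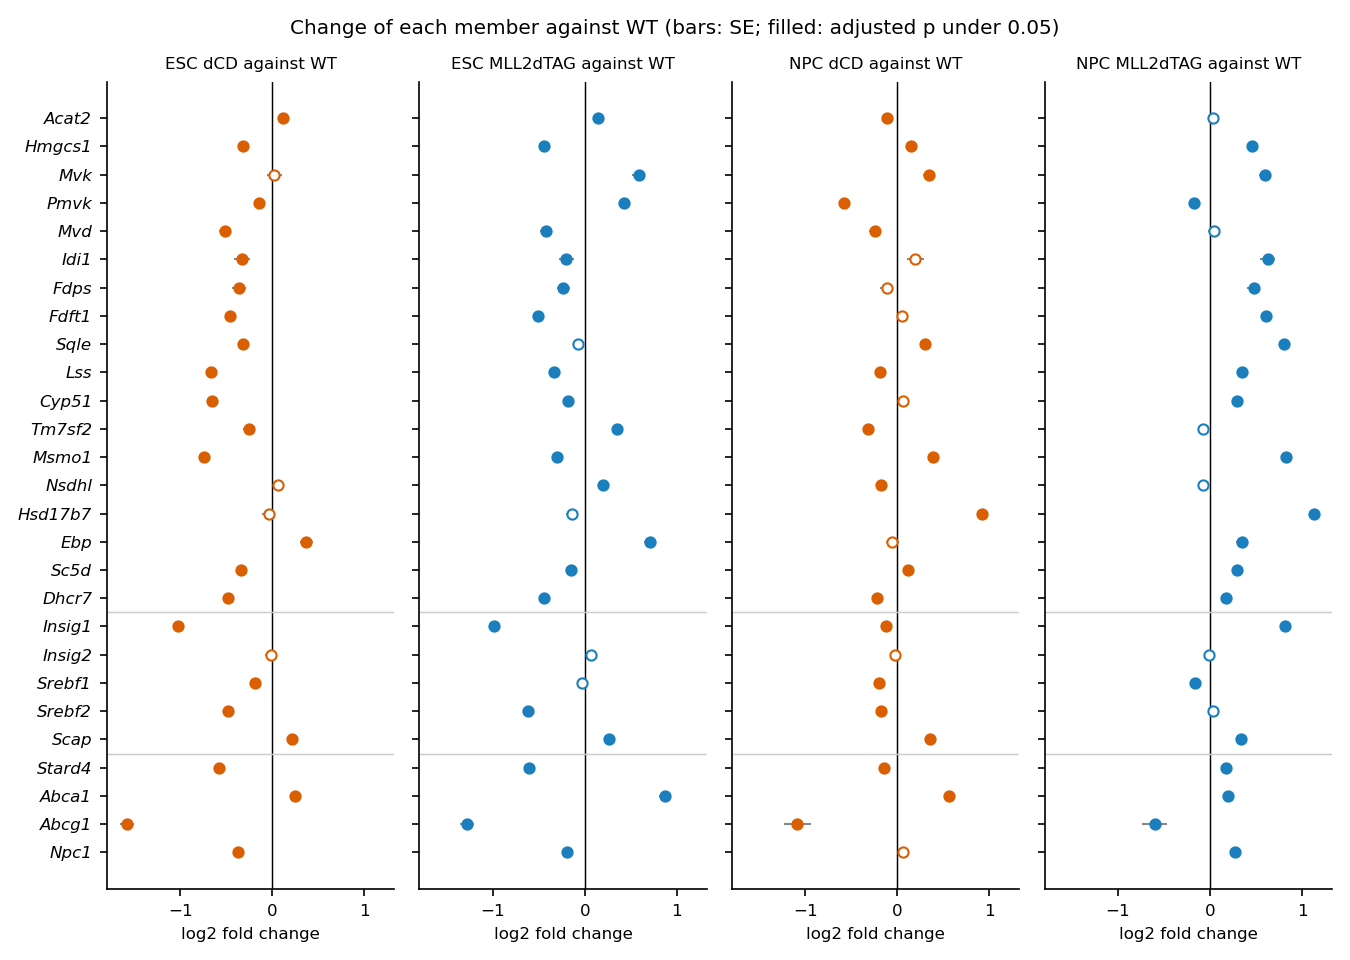
Log2 fold change against WT (x axis) of each of the 27 genes (y axis, in the order of synthesis, SREBP control and transport) in dCD and MLL2dTAG, as ESC and as NPC; bars are the standard error and filled points have an adjusted p under 0.05. Most points lie left of 0 in the ESC panels (19 and 15 genes called lower) and right of 0 in the NPC MLL2dTAG panel (18 called higher).

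The first block of enzymes leads from acetyl-CoA to farnesyl diphosphate. Hmgcs1, whose product makes HMG-CoA, was the most abundant of the 27 genes per length of exon in ESC WT, at 65.2 ± 1.30 CPM per kb (SD, n = 3), and in NPC WT, at 77.2 ± 0.496 CPM per kb. In ESC its level was 306, 294 and 298 CPM in the WT libraries, 238, 239 and 247 in dCD and 220.3, 221 and 218 in MLL2dTAG. In NPC the levels were 357, 352 and 354 CPM in WT, 394, 398 and 389 in dCD and 486, 484 and 494 in MLL2dTAG. The 3 genotypes did not overlap at either stage, and their order in ESC, WT above dCD above MLL2dTAG, was turned round in NPC. The log2 changes were -0.31 (SE 0.030, adjusted p = 1e-10) for dCD and -0.45 (SE 0.030, adjusted p = 5.2e-15) for MLL2dTAG at the ESC stage, 0.15 (SE 0.029, adjusted p = 4.1e-05) in NPC dCD and 0.46 (SE 0.029, adjusted p = 6e-16) in NPC MLL2dTAG.

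The kinases and the decarboxylase that carry mevalonate to isopentenyl diphosphate did not move together. Mvk, mevalonate kinase, was at 18.9, 15.8 and 20.5 CPM in ESC WT, 19.4, 18.4 and 18.2 in ESC dCD and 28.9, 26.9 and 26.9 in ESC MLL2dTAG. It rose in ESC MLL2dTAG by 0.58 (SE 0.074), in NPC dCD by 0.34 (SE 0.067) and in NPC MLL2dTAG by 0.60 (SE 0.066), and the ESC dCD libraries lay within the WT range. Pmvk, phosphomevalonate kinase, was at 49.5, 51.2 and 51.5 CPM in NPC WT, 32.2, 34.2 and 35.7 in NPC dCD and 43.99, 45.8 and 45.3 in NPC MLL2dTAG. It is the gene of the block that fell most in NPC dCD (-0.58, SE 0.053). It also fell in NPC MLL2dTAG (-0.17, SE 0.051), and it rose in ESC MLL2dTAG (0.43, SE 0.051). Mvd, the decarboxylase, fell in the ESC of both lines (-0.51, SE 0.067, in dCD and -0.42, SE 0.065, in MLL2dTAG) and in NPC dCD (-0.25, SE 0.063). In NPC MLL2dTAG its value was 0.045 (SE 0.062, adjusted p = 0.55).

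Idi1, the isomerase, and Fdps, the synthase of farnesyl diphosphate, were among the less abundant genes. Idi1 was at 18.8, 17.7 and 20.4 CPM in ESC WT, 16.7, 14.3 and 14.2 in ESC dCD and 15.7, 17.5 and 16.2 in ESC MLL2dTAG. Both edited lines lay below all WT libraries. In NPC Idi1 was at 10.2, 10.8 and 9.86 CPM in WT, 12.8, 12.3 and 10.3 in dCD and 15.7, 15.6 and 16.3 in MLL2dTAG, which did not overlap WT and had a log2 change of 0.63 (SE 0.085, adjusted p = 5.6e-08). Fdps was at 16.8, 17.8 and 17.3 CPM in NPC WT and 25.2, 23.4 and 23.6 in NPC MLL2dTAG, a log2 change of 0.47 (SE 0.067, adjusted p = 1.4e-07). In ESC Fdps fell by 0.36 in dCD and by 0.23 in MLL2dTAG. The ESC MLL2dTAG calls did not hold in every alternative. Without a low-count filter those of Fdps (-0.18, adjusted p = 0.1) and Idi1 (-0.14, adjusted p = 0.24) were lost, and DESeq2 did not call Idi1 (-0.19, adjusted p = 0.053). With libraries left out, that of Fdps was lost without ESC WT library 3 (-0.18, adjusted p = 0.063), and that of Idi1 (-0.20) was lost without ESC WT library 1 or 3 or MLL2dTAG library 1 or 3, with -0.14, adjusted p = 0.22 without ESC WT library 3. Without NPC dCD library 3, Idi1 was called in NPC dCD at 0.29, adjusted p = 0.0094, where the value over all 3 libraries was 0.20 (adjusted p = 0.06). It was also called there with RLE scaling, DESeq2 and only the compared groups fitted, at adjusted p from 0.046 to 0.048.

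Acat2, the cytosolic acetoacetyl-CoA thiolase, rose by 0.12 in ESC dCD and 0.14 in ESC MLL2dTAG and fell by 0.11 in NPC dCD. The ESC dCD call was lost without ESC WT library 2 (0.098, adjusted p = 0.058) or dCD library 3 (0.097, adjusted p = 0.084). With all libraries it was lost with only the compared groups fitted (0.10, adjusted p = 0.097) and with GC and length offsets (0.061, adjusted p = 0.19). The NPC dCD call was lost without NPC WT library 2 (-0.098, adjusted p = 0.054) or dCD library 2 (-0.090, adjusted p = 0.068). It was also lost with no low-count filter (-0.091, adjusted p = 0.14). Pmvk fell by 0.14 in ESC dCD with overlapping libraries, and that call was lost without ESC WT library 1 (-0.089, adjusted p = 0.2) or 3 or dCD library 1. It was also lost with RLE scaling, DESeq2, no low-count filter and the GC and length offsets, at adjusted p from 0.05 to 0.12. Acat2 has a near-identical copy, Acat3, at 10 to 42 counts per library, and how reads shared with it were counted is not given. Idi2, a gene related to Idi1, was at 0 to 7 counts. Summed over the 7 genes of the block, the CPM level was 84.8% of WT for dCD and 88.3% for MLL2dTAG among ESC, and 102% and 125% among NPC.

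Of the 11 genes from squalene synthesis to the last reductions, most were lower in ESC dCD and higher in NPC MLL2dTAG. In ESC dCD 8 fell and 1 rose, and in NPC MLL2dTAG 9 rose and 0 fell by edgeR's quasi-likelihood test. The uncalled genes there, Tm7sf2 (unadjusted p = 0.16) and Nsdhl (unadjusted p = 0.15), were not called by DESeq2 either. Both were called lower in 3 alternatives: upper-quartile scaling (-0.17, adjusted p = 0.0061, and -0.16, adjusted p = 0.0033), only the compared groups fitted (-0.12, adjusted p = 0.0088, and -0.12, adjusted p = 0.0053), and GC and length offsets (-0.18, adjusted p = 0.0017, and -0.12, adjusted p = 0.025). The summed level of the 11 genes was 72.7% of WT for dCD and 86.1% for MLL2dTAG among ESC, and 105% and 137% among NPC. Fdft1, squalene synthase, was at 129.5, 122 and 128 CPM in ESC WT, 91.2, 93.5 and 90.8 in dCD and 88.6, 93.8 and 84.96 in MLL2dTAG. In NPC it was at 95.8, 90.99 and 93.9 CPM in WT, 94.3, 99.8 and 96.98 in dCD and 147, 143 and 139 in MLL2dTAG. Both edited lines lay below WT in ESC, dCD overlapped WT in NPC, and MLL2dTAG lay above both in NPC. The changes in MLL2dTAG were -0.50 (SE 0.041, adjusted p = 5.2e-13) in ESC and 0.61 (SE 0.040, adjusted p = 9e-16) in NPC.

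**Figure D2:**
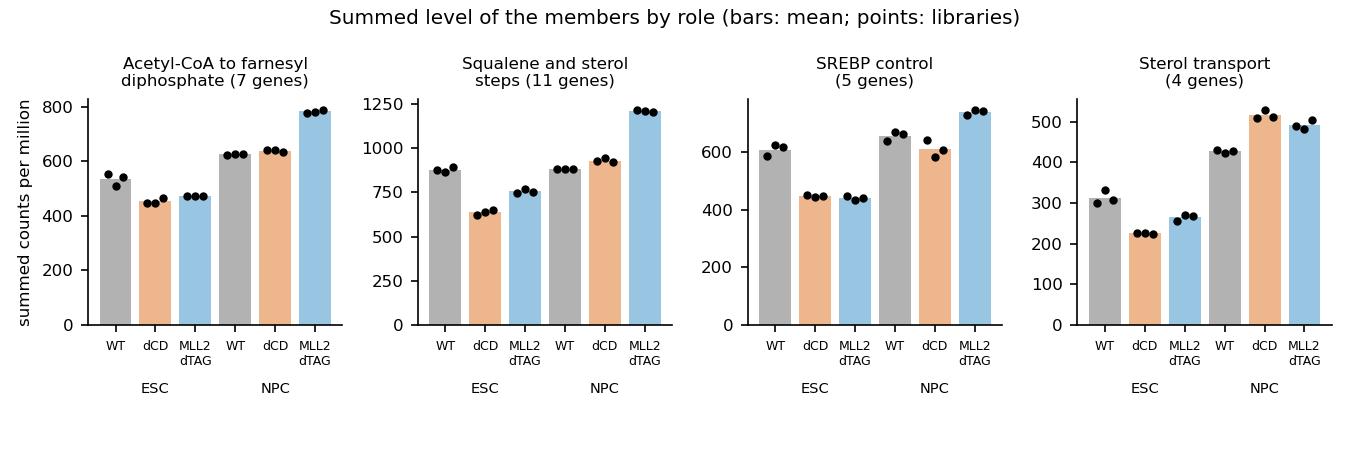
Summed CPM (y axis) of the genes of each role in each library (points) with the group mean (bars), for WT, dCD and MLL2dTAG as ESC and as NPC. In NPC MLL2dTAG the squalene and sterol steps reached 137% of NPC WT, and in ESC dCD 72.7% of ESC WT.

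Sqle, squalene epoxidase, which starts the oxygen-dependent part of the pathway, was at 116, 113 and 123 CPM in ESC WT, 93.95, 95.7 and 92.98 in ESC dCD and 109, 113 and 111 in ESC MLL2dTAG. Only dCD lay below all WT libraries. In NPC the levels were 108, 109 and 107 CPM in WT, 133, 139 and 127 in dCD and 186, 191 and 189.6 in MLL2dTAG, with no overlap between any of the 3. Its change was 0.30 (SE 0.038) in NPC dCD and 0.81 (SE 0.038, adjusted p = 8.2e-20) in NPC MLL2dTAG. In ESC MLL2dTAG its value of -0.078 (adjusted p = 0.085) was called only without ESC WT library 2 (-0.11, adjusted p = 0.021) among the libraries left out in turn. With all libraries it was called with upper-quartile scaling (-0.13, adjusted p = 0.0035) and halved counts (-0.087, adjusted p = 0.049).

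Lss, which closes squalene epoxide into lanosterol, was at 133, 144 and 134 CPM in ESC WT, 85.7, 84.4 and 89.8 in dCD and 107, 107 and 113 in MLL2dTAG. It fell by 0.66 (SE 0.040) in ESC dCD and by 0.34 (SE 0.039) in ESC MLL2dTAG. In NPC it was at 113, 110.5 and 112 CPM in WT, 97.3, 98.1 and 101 in dCD and 145, 142 and 139 in MLL2dTAG, so the edited lines lay on opposite sides of WT. Cyp51, lanosterol demethylase, was at 124, 116 and 127 CPM in ESC WT and 74.5, 75.3 and 82.5 in ESC dCD, a log2 change of -0.66 (SE 0.043, adjusted p = 9e-15). ESC MLL2dTAG lay between them, with -0.18 (SE 0.042). In NPC Cyp51 rose in MLL2dTAG (0.29, SE 0.040), and in dCD its value was 0.058 (adjusted p = 0.23).

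Msmo1, the C4-methyl sterol oxidase, fell most of the 18 enzymes in ESC dCD. It was at 126, 119.8 and 128 CPM in ESC WT, 74.9, 74.2 and 75.4 in ESC dCD and 102, 102 and 98.6 in ESC MLL2dTAG. In NPC it was at 100.5, 98.4 and 96.9 CPM in WT, 128, 128 and 129.7 in dCD and 175, 175 and 177 in MLL2dTAG. No 2 genotypes overlapped at either stage. The log2 changes in dCD were -0.74 (SE 0.037, adjusted p = 9.3e-18) in ESC and 0.38 (SE 0.035, adjusted p = 1.5e-11) in NPC, and in MLL2dTAG -0.31 (SE 0.036) and 0.83 (SE 0.035). Msmo1 is an enzyme gene with the SREBP motif in its window, as is Hmgcs1.

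Hsd17b7, the 3-ketosteroid reductase of the C4 demethylation complex, had the lowest level per length in ESC WT (3.52 ± 0.118 CPM per kb, SD, n = 3) and rose most in NPC. In ESC its levels were 17.6, 17.6 and 18.7 CPM in WT, 16.6, 18.02 and 17.9 in dCD and 16.5, 15.99 and 16.6 in MLL2dTAG. In NPC they were 22.4, 23.96 and 20.9 CPM in WT, 43.0, 42.4 and 41.98 in dCD and 48.4, 49.97 and 48.7 in MLL2dTAG. Every edited NPC library lay above every WT library. The log2 change was 0.92 (SE 0.056, adjusted p = 2.5e-16) in NPC dCD and 1.13 (SE 0.055, adjusted p = 2.8e-19) in NPC MLL2dTAG, and neither ESC value (-0.038 and -0.14) was called. The ESC MLL2dTAG libraries lay below all ESC WT libraries. There Hsd17b7 was called lower with upper-quartile scaling (-0.19, adjusted p = 0.011) and with GC and length offsets (-0.16, adjusted p = 0.03). Nsdhl, the dehydrogenase of the same complex, did not follow it: its values were -0.17 (SE 0.049), a fall, in NPC dCD and -0.071 (SE 0.048, adjusted p = 0.2) in NPC MLL2dTAG. In ESC Nsdhl rose by 0.20 in MLL2dTAG, and in dCD its value was 0.063 (adjusted p = 0.37).

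**Figure D3:**
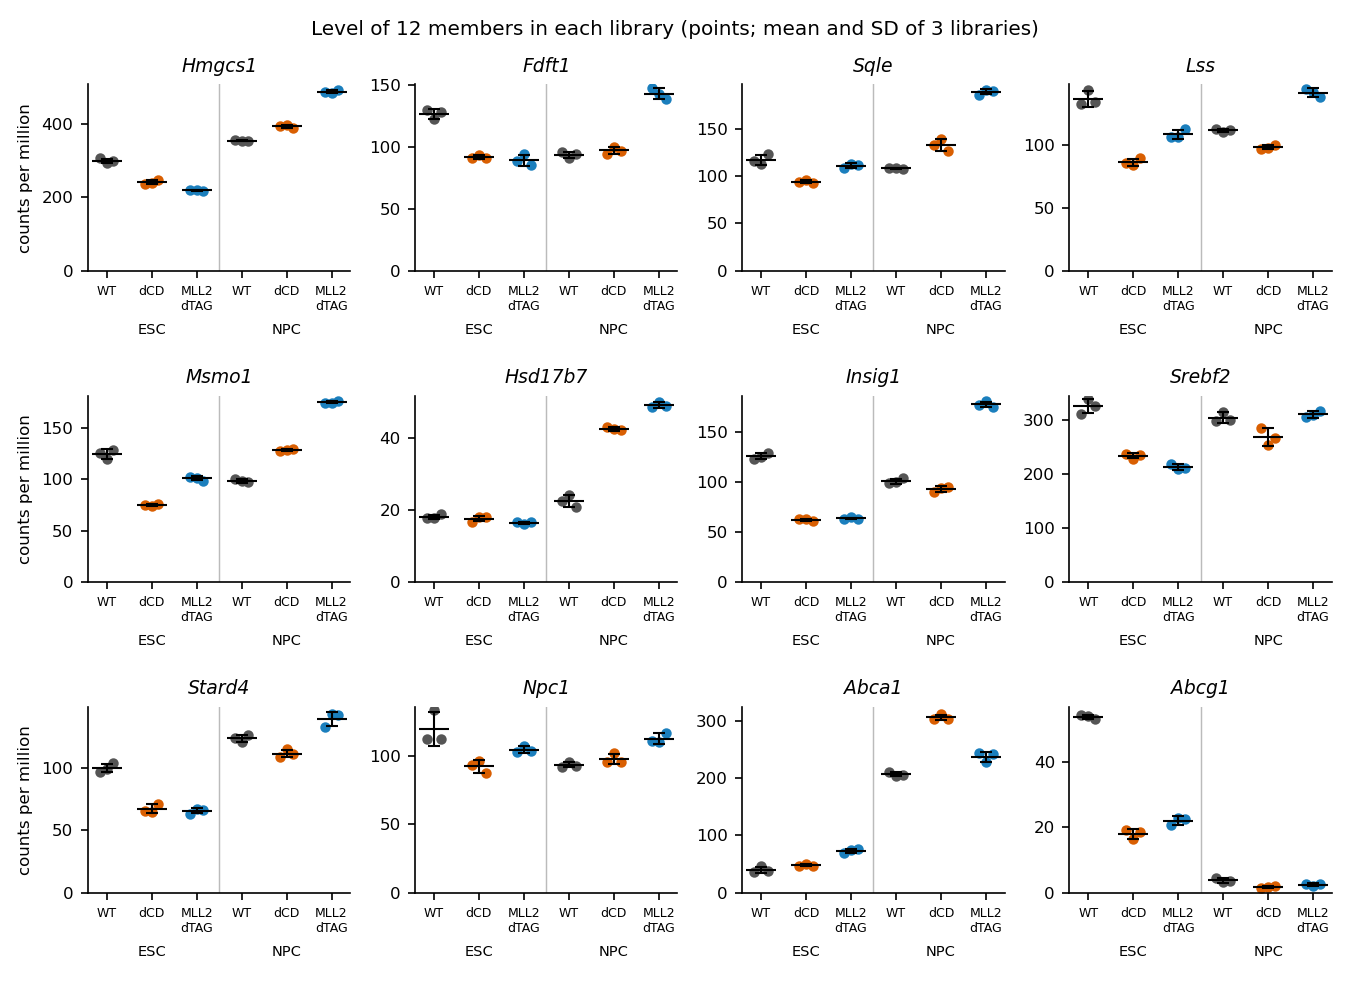
Level in CPM (y axis, from 0) of 12 of the genes in each of the 18 libraries (points), with the mean and SD of the 3 libraries of a group, by genotype and stage. Hsd17b7 stood at 42.0 to 49.97 CPM in the edited NPC against 20.9 to 24.0 in NPC WT, and Insig1 at 60.6 to 64.2 CPM in the edited ESC against 123 to 129 in ESC WT.

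Ebp, the sterol isomerase, rose in the ESC of both lines, and Tm7sf2, the C14 reductase, moved in opposite directions in them. Ebp was at 21.5, 16.98 and 20.97 CPM in ESC WT, 24.1, 26.01 and 26.2 in ESC dCD and 32.6, 32.01 and 31.8 in ESC MLL2dTAG, and rose by 0.37 (SE 0.073) and 0.71 (SE 0.069). The 3 genotypes did not overlap. Tm7sf2 fell in ESC dCD (-0.25, SE 0.066) and rose in ESC MLL2dTAG (0.35, SE 0.061). In NPC Tm7sf2 fell by 0.32 in dCD, where Ebp was at -0.053 (adjusted p = 0.54), and Ebp rose by 0.35 in MLL2dTAG. The last enzymes, Sc5d, the C5 desaturase, and Dhcr7, the final reductase, fell in the ESC of both lines. Dhcr7 was at 105, 112 and 108 CPM in ESC WT, 73.9, 80.2 and 79.8 in dCD and 78.9, 81.3 and 78.98 in MLL2dTAG, with changes of -0.48 (SE 0.040) and -0.45 (SE 0.040). In NPC Dhcr7 fell by 0.22 in dCD and rose by 0.18 in MLL2dTAG, a rise that upper-quartile scaling took below the threshold (0.085, adjusted p = 0.06). For Sc5d the ESC MLL2dTAG value was -0.15, lost without MLL2dTAG library 3 (-0.10, adjusted p = 0.081), and the NPC dCD value was 0.11, lost without NPC WT library 1 (0.10, adjusted p = 0.068) or 2 or dCD library 2. The ESC MLL2dTAG call of Sc5d was also lost with no low-count filter (-0.095, adjusted p = 0.21).

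Insig1, itself a target of SREBP, had the largest change of the 5 SREBP control genes in the ESC of both lines and in NPC MLL2dTAG, but not in NPC dCD. In ESC it was at 123, 124 and 129 CPM in WT, 62.2, 62.2 and 60.6 in dCD and 62.4, 64.2 and 63.1 in MLL2dTAG. In NPC it was at 98.2, 99.5 and 103 CPM in WT, 89.3, 93.2 and 94.9 in dCD and 177, 180.0 and 175 in MLL2dTAG. The edited ESC lay far below WT, and NPC MLL2dTAG lay far above both other genotypes. The log2 changes were -1.02 (SE 0.039, adjusted p = 6.1e-21) in ESC dCD, -0.99 (SE 0.038, adjusted p = 1e-21) in ESC MLL2dTAG and 0.82 (SE 0.036, adjusted p = 1.5e-20) in NPC MLL2dTAG. The smaller fall in NPC dCD (-0.12, SE 0.037) was lost without NPC WT library 3 (-0.097, adjusted p = 0.056) or dCD library 1 (-0.095, adjusted p = 0.054). It was also lost with no low-count filter (-0.099, adjusted p = 0.095).

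Insig2, which also retains SCAP but is not driven by SREBP in the same way, was not called in any of the 4 comparisons with WT. Its level was 31.5, 32.6 and 34.02 CPM in ESC WT, and the 18 libraries lay between 30.8 and 37.9 CPM. The ratio of Insig1 to Insig2 counts was 3.83 ± 0.0578 (SD, n = 3) in ESC WT, 1.91 ± 0.124 in dCD cells and 1.84 ± 0.0321 in MLL2dTAG cells of that stage. In NPC it was 2.82 ± 0.0534 in WT, 2.64 ± 0.107 in dCD and 5.03 ± 0.349 in MLL2dTAG.

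Srebf2 was at 313, 339 and 327 CPM in ESC WT, 237, 229 and 236 in ESC dCD and 219, 209.6 and 211 in ESC MLL2dTAG. The edited lines did not overlap WT, with changes of -0.48 (SE 0.039) and -0.62 (SE 0.038, adjusted p = 5.9e-16). In NPC it fell by 0.18 (SE 0.038) in dCD, and in MLL2dTAG, where many of the enzymes rose, it was at 306, 310.2 and 318 CPM against 298, 316 and 300.3 in WT (0.031, SE 0.038, adjusted p = 0.5). The WT and MLL2dTAG ranges overlapped. With offsets for GC content and length, Srebf2 was called higher in NPC MLL2dTAG (0.089, adjusted p = 0.0077). Srebf1, which encodes the SREBP forms better known for fatty acid synthesis, fell by 0.19 in ESC dCD, 0.20 in NPC dCD and 0.17 in NPC MLL2dTAG, and in ESC MLL2dTAG its value was -0.028 (adjusted p = 0.63). The ESC dCD call of Srebf1 was lost with offsets for GC content and length (-0.076, adjusted p = 0.095). Scap rose in all 4 comparisons with WT, by 0.22 and 0.26 in ESC and by 0.35 and 0.33 in NPC (SE 0.047 to 0.055).

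The transport genes did not move together. Abcg1, a sterol exporter, was at 54.1, 53.8 and 53.1 CPM in ESC WT, 19.1, 16.3 and 18.6 in ESC dCD and 20.5, 22.9 and 22.6 in ESC MLL2dTAG. All edited ESC libraries were below WT, with log2 changes of -1.57 (SE 0.079, adjusted p = 6.7e-18) and -1.28 (SE 0.075, adjusted p = 1.1e-16). In NPC the levels were 4.56, 3.35 and 3.46 CPM in WT, 1.59, 1.71 and 2.00 in dCD and 2.61, 2.12 and 2.77 in MLL2dTAG. The edited lines were again lower (-1.09, SE 0.15, and -0.60, SE 0.13).

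Abca1, the exporter that loads cholesterol onto apolipoprotein A-I, moved the other way. It was at 35.9, 46.3 and 37.97 CPM in ESC WT, 47.5, 49.7 and 46.8 in ESC dCD and 69.8, 74.2 and 76.6 in ESC MLL2dTAG. In NPC it was at 209.8, 204 and 206 CPM in WT, 303, 311 and 303 in dCD and 243, 227 and 242 in MLL2dTAG. Edited libraries lay above WT at both stages, with ESC WT library 2 close to ESC dCD, and the largest change was that of ESC MLL2dTAG (0.87, SE 0.056, adjusted p = 1.1e-15). The rise in NPC MLL2dTAG (0.20, SE 0.046) missed the threshold with upper-quartile scaling (0.11, adjusted p = 0.054). Stard4, a cytosolic sterol carrier that responds to SREBP, was at 97.05, 99.2 and 104 CPM in ESC WT, 65.6, 64.8 and 71.4 in dCD and 63.5, 67.1 and 66.5 in MLL2dTAG, and fell by 0.57 and 0.61 (SE 0.044 and 0.044). In NPC Stard4 fell by 0.15 in dCD and rose by 0.17 in MLL2dTAG, a call also lost with upper-quartile scaling (0.081, adjusted p = 0.076).

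Npc1, which moves cholesterol out of lysosomes, was at 112, 134 and 112 CPM in ESC WT, 93.5, 96.01 and 87.3 in ESC dCD and 103, 107 and 103 in ESC MLL2dTAG. ESC WT library 2 stood above the other WT libraries, and the edited lines lay below all 3. Npc1 fell by 0.38 (SE 0.051) and 0.19 (SE 0.050) in ESC and rose by 0.27 (SE 0.049) in NPC MLL2dTAG.

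The change against WT was then compared between the stages, as the change in NPC minus the change in ESC. In MLL2dTAG 12 genes fell in ESC and rose in NPC, where 5.87% of all genes did so: Hmgcs1, Idi1, Fdps, Fdft1, Lss, Cyp51, Msmo1, Sc5d, Dhcr7, Insig1, Stard4 and Npc1. In dCD the same held for 4 genes, Hmgcs1, Sqle, Msmo1 and Sc5d (4.51% of all genes). The difference itself was positive and called for 17 genes and negative and called for 5 in MLL2dTAG (26.4% and 22.6% of all genes). Over all genes 53.9% of these MLL2dTAG calls were positive, and 43.8% without a low-count filter. In dCD it was positive for 19 and negative for 4 (20% and 22.9% of all genes). The median difference was 0.48 in MLL2dTAG and 0.32 in dCD, against 0.046 and -0.044 over all genes.

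The largest difference was that of Insig1 in MLL2dTAG, 1.81 (SE 0.053, adjusted p = 6.7e-25). It was followed by Hsd17b7 (1.27, SE 0.086), Msmo1 (1.14, SE 0.050) and Fdft1 (1.11, SE 0.057). In dCD it was largest for Msmo1 (1.12, SE 0.051, adjusted p = 4.7e-19) and Hsd17b7 (0.96, SE 0.087). Genes that differed the opposite way in both lines were Pmvk, Nsdhl and Ebp, with Pmvk at -0.44 in dCD and -0.60 in MLL2dTAG. Abca1 differed upwards in dCD (0.32, SE 0.075) and downwards in MLL2dTAG (-0.67, SE 0.072). Several dCD calls did not hold in every alternative. That of Fdps (0.25, adjusted p = 0.049) was lost without any of 10 of the 12 libraries, with 0.20, adjusted p = 0.16 without ESC WT library 3, and with the replicate number as a block (0.25, adjusted p = 0.062). With all libraries and no block it was lost in 6 more alternatives, at adjusted p from 0.051 (upper-quartile scaling and halved counts) to 0.13 (no low-count filter), and was called only with GC and length offsets (0.28, adjusted p = 0.023). Mvk (0.32) was lost without ESC WT library 3 (0.22, adjusted p = 0.1) or NPC WT library 1. Mvd (0.27) was lost without ESC WT library 1 (0.20, adjusted p = 0.073) or 3 or ESC dCD library 2. Abcg1 (0.49) was lost without ESC dCD library 2, NPC WT library 2 or 3, or NPC dCD library 3 (0.39, adjusted p = 0.12). Scap (0.13, adjusted p = 0.14) was called without NPC dCD library 2 (0.18, adjusted p = 0.037). In MLL2dTAG, Acat2 (-0.11, adjusted p = 0.081) was called without ESC WT library 3 (-0.14, adjusted p = 0.05), and Srebf1 (-0.14, adjusted p = 0.066) without any one of 5 libraries, such as ESC WT library 2 (-0.16, adjusted p = 0.023). With all libraries, both were called lower with RLE scaling, upper-quartile scaling, DESeq2 and no low-count filter, Acat2 at adjusted p from 0.0066 to 0.038 and Srebf1 from 0.0012 to 0.038.

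**Figure D4:**
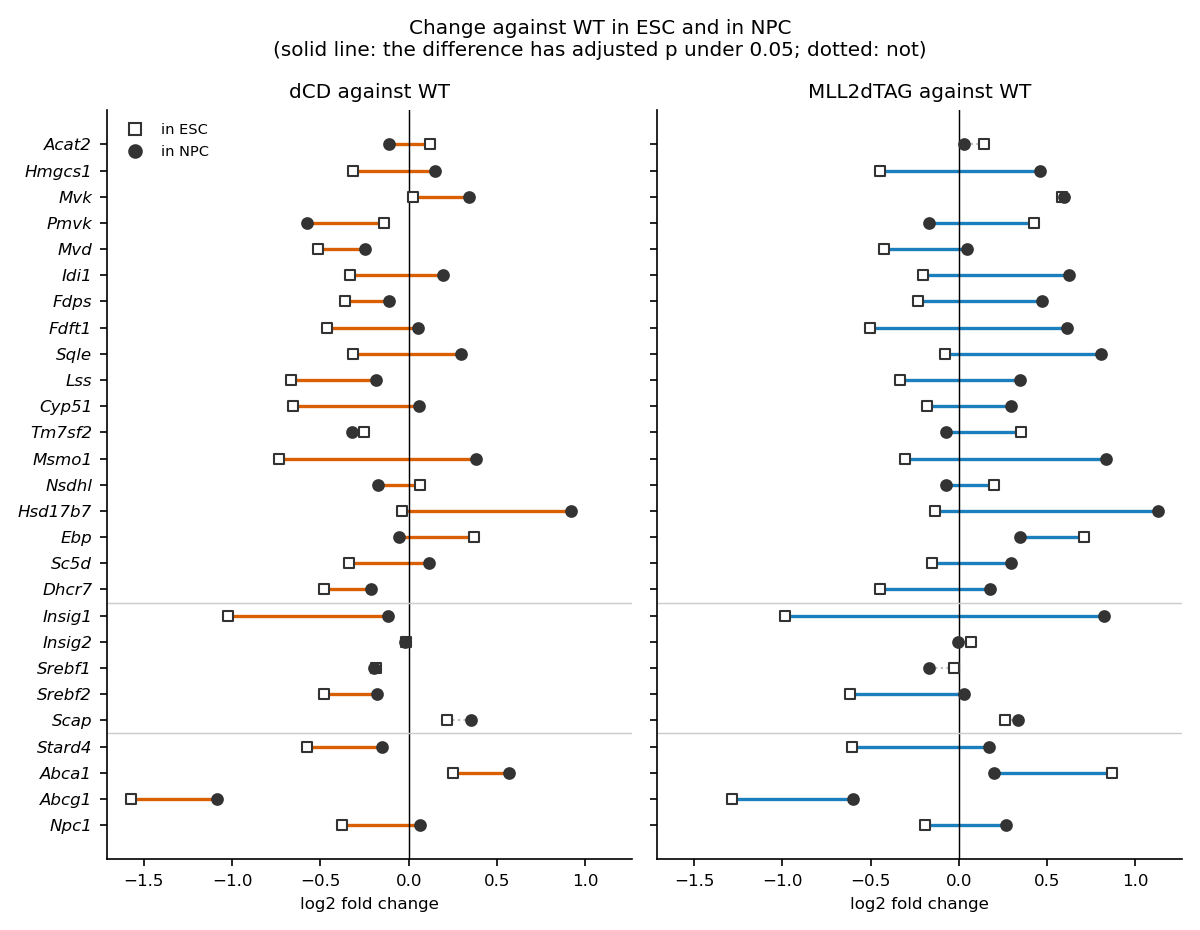
Log2 fold change against WT (x axis) in ESC (open squares) and NPC (filled circles) for each of the 27 genes (y axis), for dCD (left) and MLL2dTAG (right); a solid line joins points whose difference has an adjusted p under 0.05, a dotted line the others. In MLL2dTAG 12 genes have a called fall in ESC and a called rise in NPC, Insig1 with the widest gap (1.81).

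The edited lines were also compared with each other, a contrast that takes no WT mean, in the fit over all 18 libraries. In ESC MLL2dTAG stood above dCD for 14 genes and below it for 2 (23.4% and 23.7% of all genes), with a median of 0.13 against -0.0090 over all genes. With upper-quartile scaling 40.5% of the calls over all genes were higher, against 49.7% with TMM scaling. The widest gaps were those of Abca1 (0.62, SE 0.055), Tm7sf2 (0.61, SE 0.063), Pmvk (0.56, SE 0.051) and Mvk (0.56, SE 0.074). Hmgcs1 (-0.13) and Srebf2 (-0.14) were lower in MLL2dTAG. Insig1 (0.037, SE 0.040, adjusted p = 0.49) was not called. The Nsdhl call (0.13) was lost without ESC MLL2dTAG library 3 (0.082, adjusted p = 0.29) or dCD library 1 (0.097, adjusted p = 0.2) or 2 (0.13, adjusted p = 0.087). It was also lost with only the compared groups fitted (0.12, adjusted p = 0.054) and with upper-quartile scaling (0.082, adjusted p = 0.22).

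In NPC MLL2dTAG stood above dCD for 22 of the 27 genes and below it for 1, Abca1 (31.6% and 24.3% of all genes). The median was 0.29 against 0.052 over all genes. All 7 genes from Acat2 to Fdps and 10 of the 11 from Fdft1 to Dhcr7 were higher. Insig1 led with 0.94 (SE 0.036, adjusted p = 3.9e-22), followed by Fdps (0.59, SE 0.068), Fdft1 (0.56, SE 0.040) and Lss (0.53, SE 0.038). Over all genes, 56.5% of the calls in this comparison were higher, and with upper-quartile scaling 45.2%, or 48.2% without a low-count filter. For the 27 genes the split with that scaling was 21 higher and 1 lower. The Abcg1 call (0.49) was lost without NPC MLL2dTAG library 3 (0.40, adjusted p = 0.051). The Acat2 call (0.14) was lost with upper-quartile scaling (0.057, adjusted p = 0.19) and without a low-count filter (0.081, adjusted p = 0.2). Without that filter the Hsd17b7 call (0.21) was lost too (0.15, adjusted p = 0.05). Nsdhl (0.10, adjusted p = 0.07) was called without NPC MLL2dTAG library 2 (0.14, adjusted p = 0.033). With all libraries it was called with halved counts (0.10, adjusted p = 0.043) and GC and length offsets (0.11, adjusted p = 0.038).

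In WT, differentiation changed the exporters most. Abca1 rose by 2.36 (SE 0.054) and Abcg1 fell by 3.83 (SE 0.094) on the log2 scale, so the ratio of Abca1 to Abcg1 counts went from 0.747 ± 0.101 (SD, n = 3) in ESC WT to 55.5 ± 8.19 in NPC WT. The 3 ESC libraries lay far from the 3 NPC libraries in both genes. In all 13 of the 27 genes rose and 11 fell, where 39.1% and 40.4% of all genes did, and the summed level in NPC was 111% of that in ESC. Among the enzymes Tm7sf2 (1.10, SE 0.058), Sc5d (0.88, SE 0.044) and Nsdhl (0.82, SE 0.052) rose most. Idi1 (-0.88, SE 0.087), Fdft1 (-0.43, SE 0.040) and Msmo1 (-0.34, SE 0.036) fell most. Of the control genes Scap (0.80) and Srebf1 (0.79) rose and Insig1 fell (-0.32).

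**Figure D5:**
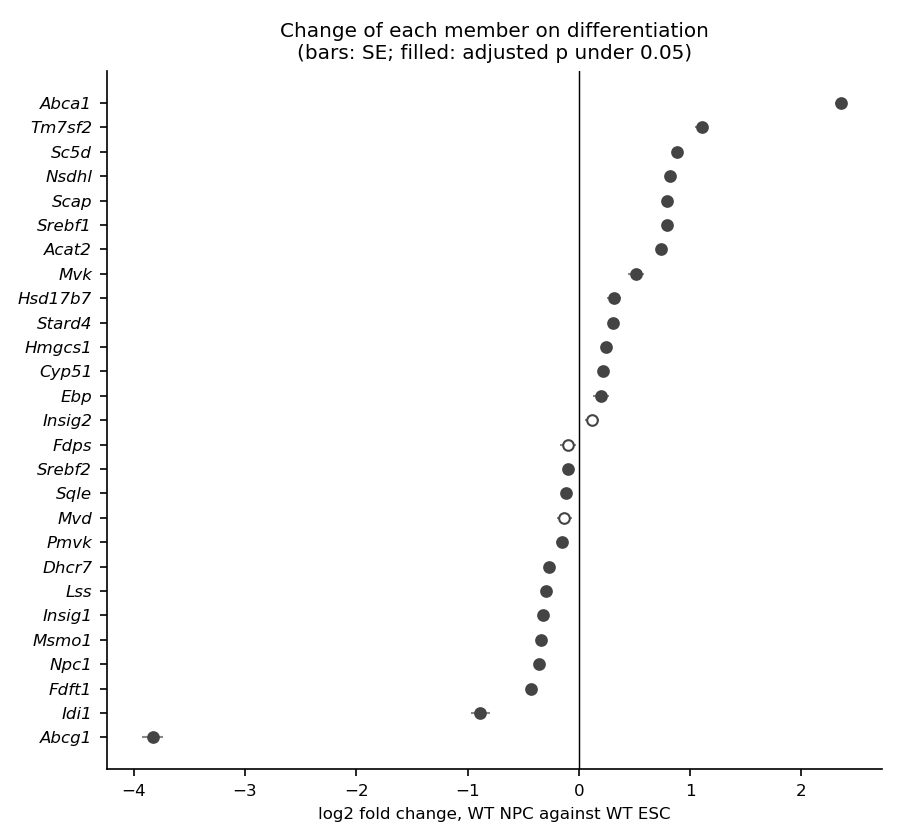
Log2 fold change from WT ESC to WT NPC (x axis) of the 27 genes, sorted by size (y axis); bars are the standard error and filled points have an adjusted p under 0.05. Abca1 (2.36) and Abcg1 (-3.83) lie at the ends, and the other genes lie between -0.88 and 1.10.

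Small WT changes did not hold in every alternative. Srebf2 (-0.099, adjusted p = 0.018), whose ESC and NPC libraries overlapped, was lost without ESC WT library 2 (-0.066, adjusted p = 0.094) or NPC WT library 1 or 3. Its direction turned with no filter on low counts (0.0039). Pmvk (-0.15) was lost without ESC WT library 1 (-0.099, adjusted p = 0.097) and turned with offsets for GC content and length (0.0095). Sqle (-0.12) was lost without ESC WT library 3 (-0.076, adjusted p = 0.1) and without a low-count filter (-0.014, adjusted p = 0.92), and Ebp (0.20) without ESC WT library 2 (0.096, adjusted p = 0.22). Mvd (-0.13, adjusted p = 0.064) was called without ESC WT library 2 (-0.23, adjusted p = 0.00049), and Insig2 (0.12, adjusted p = 0.068) without ESC WT library 3 (0.15, adjusted p = 0.044) or NPC WT library 1. With all libraries, Insig2 was also called in 5 alternatives, RLE scaling, DESeq2, no low-count filter, only the compared groups and GC and length offsets, at adjusted p from 0.0014 to 0.037. Mvd was also called with upper-quartile scaling (-0.21, adjusted p = 0.0024) and halved counts (-0.13, adjusted p = 0.04).

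Per length of exon, levels within WT spanned a wide range. In ESC WT the order began with Hmgcs1, Srebf2 (45.4 ± 1.87 CPM per kb, SD, n = 3) and Insig1 (40.5 ± 1.03), and ended with Fdps (4.42 ± 0.361), Abca1 (3.87 ± 0.529) and Hsd17b7 (3.52 ± 0.118). Neighbours such as Acat2 (28.0 ± 0.823), Mvd (27.8 ± 3.42) and Cyp51 (27.7 ± 1.27) did not differ beyond their spread. In NPC WT Hmgcs1 was followed by Acat2 (46.8 ± 0.747 CPM per kb) and Srebf2 (42.4 ± 1.40), and Abcg1 (0.520 ± 0.0912) was last. These levels use the union of exons in GENCODE vM21, which can overstate the length of the transcript made in these cells.

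Other genes of sterol metabolism were taken as lists by role. Their counts stand against the share of all tested genes that rose and fell, 25.7% and 22.6% in ESC dCD, 28.7% and 28.2% in ESC MLL2dTAG, 26.7% and 26.8% in NPC dCD, and 33.3% and 28.4% in NPC MLL2dTAG. Of 4 other genes of cholesterol synthesis, 3 fell and 1 rose in ESC dCD, 1 fell and 2 rose in ESC MLL2dTAG, and 3 rose and 1 fell in NPC of each edited line. Aacs, which returns ketone bodies to acetoacetyl-CoA, rose in NPC dCD (0.91, SE 0.055) and NPC MLL2dTAG (1.20, SE 0.054), and Lbr, another sterol C14 reductase, fell in both (-0.27, SE 0.036 and -0.30, SE 0.036). Of 9 other genes of SREBP processing and enzyme turnover, 5 rose and 3 fell in ESC dCD, 7 rose and 1 fell in ESC MLL2dTAG, 2 rose and 2 fell in NPC dCD, and 7 rose and 1 fell in NPC MLL2dTAG. Erlin1, an endoplasmic reticulum protein, was the lowest of them in ESC dCD (-0.40, SE 0.045) and ESC MLL2dTAG (-0.26, SE 0.044) and the highest in NPC MLL2dTAG (0.73, SE 0.044). The site-2 protease gene Mbtps2 was the lowest in NPC dCD (-0.52, SE 0.047) and NPC MLL2dTAG (-0.23, SE 0.045).

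Of 22 genes of sterol uptake, storage and movement, 16 fell and 2 rose in ESC dCD (22.6% and 25.7% of all genes), with a median of -0.34 against 0.023 over all genes, and 11 fell and 6 rose in both ESC and NPC of MLL2dTAG (medians -0.14 and -0.080, against -0.0011 and 0.028 over all genes). In NPC dCD 10 fell and 9 rose. Scarb1, the HDL receptor, was the lowest in ESC dCD (-0.85, SE 0.046), and Cav1, caveolin 1, the highest in ESC dCD (1.02, SE 0.084), ESC MLL2dTAG (0.87, SE 0.083) and NPC dCD (1.12, SE 0.099). In NPC MLL2dTAG Cav1 fell (-1.13, SE 0.12). Of 13 genes of fatty acid synthesis, 5 rose and 4 fell in ESC dCD, 7 and 3 in ESC MLL2dTAG, 5 and 5 in NPC dCD, and 8 and 5 in NPC MLL2dTAG. Their medians were 0.060, 0.15, -0.0080 and 0.15, and those of all genes 0.023, -0.0011, -0.017 and 0.028. Me1, malic enzyme, was the lowest in the ESC of both lines (-0.40, SE 0.065 and -0.27, SE 0.062) and the highest in the NPC of both (0.60, SE 0.051 and 1.41, SE 0.050).

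Of 10 LXR and oxysterol genes 9 were tested, and 4 fell and 2 rose in NPC MLL2dTAG (28.4% and 33.3% of all genes), with a median of -0.24 against 0.028 over all genes. Cyp27a1, sterol 27-hydroxylase, was the lowest in ESC MLL2dTAG (-2.85, SE 0.21) and NPC MLL2dTAG (-3.66, SE 0.21). In ESC dCD 3 rose and 2 fell, in ESC MLL2dTAG 5 and 2, and in NPC dCD 3 and 3. Of 12 genes of the non-sterol branches from farnesyl diphosphate, 4 rose and 4 fell in ESC dCD, 5 and 4 in ESC MLL2dTAG, 6 and 6 in NPC dCD, and 5 and 3 in NPC MLL2dTAG, with medians from -0.029 to 0.090 where those of all genes were -0.017 to 0.028.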

How the data were processed

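mRNA sequencing libraries of WT, dCD and MLL2dTAG cells as ESC and NPC were used, 3 per group. The deposited table holds raw counts per gene symbol, made with HTSeq per the submitters' processing notes. The aligner, genome build and annotation are not given in the sources used here. Counts of 1 to 10 were even in 60.8% to 66.5% of cases, so halved counts were an alternative. Only the 18 columns of these 6 groups were used. Left out were 6 columns of this file, whose names did not map to a single sample, and 12 of another, which were not mapped. The 37 mitochondrial genes are listed at 0 in every library.

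The counts were fitted in edgeR 4.0.16 (limma 3.58.1, R 4.3.3) with TMM factors, filterByExpr and the quasi-likelihood F test, two-sided, over all 18 libraries and 20511 genes, with 12 residual degrees of freedom and Benjamini-Hochberg adjusted p-values called under 0.05. The scripts were tested on simulated data. With each count taken as separate, replicates differed beyond counting noise in all 18 pairs (chi-square per degree of freedom 2.19 to 10.53). Given the excess of even small counts, the lowest of these values may hold no more than counting noise. The highest, 10.53 and 8.38, were those of ESC WT library 2 with the other ESC WT libraries. Replicate numbers did not pair the libraries (45 same-numbered pairs, r from -0.0278 to 0.032), so no block was used. The CPM limits given for a count of 0 cover counting error only. The SD and SE values include the spread between libraries. Alternatives were RLE and upper-quartile scaling, DESeq2 1.42.0, no low-count filter, fits of the compared groups only, halved counts, a replicate block and each library left out, and, added after seeing the data, offsets for GC content and length. Of the symbols, 47523 (91.9%) matched GENCODE vM21 uniquely, with exon lengths for all 27 members.

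All 27 members are described. From other lists the text names called genes with the largest or smallest log2 change. The members and lists were chosen with earlier results of these data known. Some list members are not reported here by name.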

Additional observations from a re-analysis of the deposited data

Results flagged for a closer look

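Each gene below changed against WT by a different amount in NPC than in ESC, by edgeR's quasi-likelihood test of the difference itself (Benjamini-Hochberg adjusted p under 0.05 over all 20511 genes). The value is the log2 change in NPC minus that in ESC, and the edited lines share the WT libraries.

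In dCD the differences for genes whose change was higher in NPC than in ESC were Msmo1 1.12, Hsd17b7 0.96, Insig1 0.9, Cyp51 0.71, Sqle 0.61, Idi1 0.53 and Fdft1 0.51. The next differences of this kind were Abcg1 0.49, Lss 0.48, Hmgcs1 0.46, Sc5d 0.45, Npc1 0.44, Stard4 0.42 and Mvk 0.32. The next differences of this kind were Abca1 0.32, Srebf2 0.3, Mvd 0.27, Dhcr7 0.26 and Fdps 0.25. The Fdps difference, at an adjusted p of 0.049, was not called in most alternatives. In dCD the differences for genes whose change was lower in NPC than in ESC were Pmvk -0.44, Ebp -0.42, Nsdhl -0.24 and Acat2 -0.23.

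In MLL2dTAG the differences for genes whose change was higher in NPC than in ESC were Insig1 1.81, Hsd17b7 1.27, Msmo1 1.14, Fdft1 1.11, Hmgcs1 0.91, Sqle 0.88 and Idi1 0.83. The next differences of this kind were Stard4 0.78, Fdps 0.71, Lss 0.68, Abcg1 0.68, Srebf2 0.65, Dhcr7 0.62 and Cyp51 0.48. The next differences of this kind were Mvd 0.47, Npc1 0.46 and Sc5d 0.45. In MLL2dTAG the differences for genes whose change was lower in NPC than in ESC were Abca1 -0.67, Pmvk -0.6, Tm7sf2 -0.43, Ebp -0.36 and Nsdhl -0.27.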

How the results depend on the processing

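Of 243 results for single genes (27 genes in 9 comparisons), 205 kept their side of the threshold in every setting. Direction was compared only where a value was called in the main fit or in the setting. Of the 195 called results, 170 were called in every setting. Of 3726 comparisons with a setting, 131 changed a call, and 2 of these also turned direction. Sign changes of values called in neither fit were not counted. From WT ESC to WT NPC, Pmvk went from -0.15 to 0.0095 with GC and length offsets, which were chosen after seeing the data, and Srebf2 from -0.10 to 0.0039 with no filter on low counts. The cause was not tested. No count of called genes in both directions together, over all genes or over the 27, moved by more than 1.5 times. By direction, the 3 of the 27 that fell in NPC MLL2dTAG became 5 with upper-quartile scaling, the compared groups only, or GC and length offsets. Replicate numbers did not pair the libraries, and the replicate block changed 1 call, the dCD difference between stages of Fdps (0.25, adjusted p = 0.062). Upper-quartile scaling took the share of higher calls over all genes from 56.5% to 45.2% in NPC MLL2dTAG against dCD, from 54.0% to 44.7% in NPC MLL2dTAG against WT, from 49.7% to 40.5% in ESC MLL2dTAG against dCD and from 50.4% to 44.2% in ESC MLL2dTAG against WT. Dropping the low-count filter took it from 53.9% to 43.8% in the MLL2dTAG difference between stages. At low depth Abcg1 in NPC, at 1.59 to 4.56 CPM, is the least precise of the 27 genes.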
